A study of Mus musculus with 9 samples.

Results

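The channel and pump genes described here are the genes whose symbols mark them as ion channels, purinergic receptors or ion pumps of the plasma membrane and the calcium stores. They were chosen by symbol alone, as all genes of the Kcn, Cacn, Scn, Clcn, Clic, Ano, Trpc, Trpm, Trpv, P2rx, P2ry, Piezo, Lrrc8, Itpr, Ryr, Orai, Stim, Atp1a, Atp1b, Atp2a, Atp2b and Atp2c families in the deposited table of counts. The rule found 50 of 11046 genes. Of these, 48 encode channels, receptors, pumps or their subunits and regulators, and Kcnq1ot1, a long non-coding RNA, and Trpc4ap, an adaptor protein, matched by symbol only. The samples were 9 poly(A)-selected RNA-seq libraries from 3 mouse tumour lines in culture, with 3 libraries per line, named A, B and C. By their labels, 482N1 comes from a non-small-cell cancer of the lung (NSCLC), B16F10-BrM from a melanoma with mutant BRAF and E0771-BrM from a triple negative cancer of the breast, and BrM means brain metastatic. All 3 lines are labelled wild type and untreated, and all were grown with serum, penicillin/streptomycin and amphotericin B. The medium was DMEM for 482N1 and B16F10-BrM but RPMI 1640 with HEPES for E0771-BrM, and line and medium cannot be told apart wherever E0771-BrM is compared. The series title ties these lines to the electrophysiological effect of brain metastases.

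Ion pumps such as the sodium pump and the calcium pumps spend ATP to build ion gradients across membranes, and ion channels let the ions flow back down them. In most tumour cells, channels are known chiefly for setting the membrane potential, cell volume and cytosolic calcium. Calcium enters the cytosol through IP3 receptors of the endoplasmic reticulum, and the emptied store then opens plasma membrane Orai channels through the Stim sensors. Purinergic receptors answer extracellular ATP.

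Total counts lay between 7332390 and 9293348 per library, and all 50 genes passed the filter on low counts that left 11037 genes. The labels do not say that A, B and C were separate cultures, so the SDs, SEs and p-values measure the spread between these libraries, which may be technical. In bulk RNA, fewer cells carrying a transcript and less of it per cell cannot be told apart. The labelled types were checked with Dct, the melanocyte enzyme dopachrome tautomerase, which had 140918 to 164357 counts in the B16F10-BrM libraries, and with Krt18, a keratin of simple epithelia, which had 32601 to 33821 in 482N1, 0 in every B16F10-BrM library and 0 to 6 in E0771-BrM, which is labelled a breast cancer line. Krt8, its usual partner keratin, had 27521 to 28570 counts in 482N1, 0 to 1 in B16F10-BrM and 1428 to 1640 in E0771-BrM. Dct counts were higher in libraries A and C than in library B of 482N1 (142, 14 and 148 in order A, B, C) and of E0771-BrM (353, 29 and 263), between 0.00979% and 0.260% of the B16F10-BrM level. The 5 melanocyte markers Dct, Pmel, Tyrp1, Mitf and Gpnmb were summed in library-size-scaled counts (CPM). Their sum was 2.77 to 28.1 in 482N1, 24630 to 25484 in B16F10-BrM and 103 to 162 in E0771-BrM. Of the 5, Gpnmb and Mitf had the highest mean levels in E0771-BrM. Gpnmb (557, 528 and 513 counts) and Mitf (304, 292 and 267) had no such drop in library B there. Pmel (25, 4 and 26) and Tyrp1 (36, 3 and 33) did drop in library B of E0771-BrM, and were at 0 in library B of 482N1. The part of these traces in the results below was not tested, and when library B alone stood for 482N1 and for E0771-BrM, and was taken to vary like the libraries of B16F10-BrM, 15 of the 130 pairwise calls of the 50 genes were lost, 12 of which were also lost when another single library was left out.

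Levels are TMM-normalised CPM as mean ± SD of 3 libraries, log2 fold changes are fitted values ± SE, and "called" means an adjusted p below 0.05 in edgeR's quasi-likelihood test with Benjamini-Hochberg adjustment over all genes tested. Between B16F10-BrM and 482N1, 43 of the 50 genes were called, against 77.8% of all genes tested, with 18 higher and 25 lower in B16F10-BrM (38.0% and 39.9% of all genes). Between E0771-BrM and 482N1, 43 were called (78.1% of all genes), with 19 higher and 24 lower in E0771-BrM (37.7% and 40.4%). Between E0771-BrM and B16F10-BrM, 44 were called (73.7%), with 27 higher and 17 lower in E0771-BrM (37.2% and 36.5%). Libraries did not overlap for 43, 45 and 45 of the 50 genes in these comparisons, against 78.7%, 78.5% and 75.5% of all genes, and a call came with a fitted change of at least 2-fold for 29, 28 and 21 of them, against 40.8%, 39.6% and 34.9%. Most genes of the table differed between these lines. The called genes were 86.0%, 86.0% and 88.0% of the 50 in these comparisons, and those called with a 2-fold change 58.0%, 56.0% and 42.0%. These shares lay above those of all genes, and the difference was not tested. The median log2 fold change of the 50 genes was -0.21 for B16F10-BrM against 482N1, where that of all genes was -0.04, -0.10 against -0.04 for E0771-BrM against 482N1, and 0.32 against 0.02 for E0771-BrM against B16F10-BrM. A difference in at least 1 line was called for all 50 genes in the joint test, against 92.1% of all genes, and 31 of the 50 were called in all 3 pairwise comparisons (47.4% of all genes).

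A gene was placed highest in a line where it stood above both others. That held for 18 genes in 482N1 (25.4% of all genes), 6 in B16F10-BrM (19.8%) and 13 in E0771-BrM (19.3%), and 13 genes were highest in no line. The 18 of 482N1 included the calcium-activated channels Ano1, Kcnn4 and Trpm4, 4 of the 5 voltage-gated calcium and sodium channel genes, and the volume-regulated anion channel subunits Lrrc8a, Lrrc8c and Lrrc8e. Those of B16F10-BrM included the sodium pump beta subunit Atp1b3, the intracellular chloride transporters Clcn4 and Clcn6, Clic4, and the IP3 receptor Itpr1. The 13 of E0771-BrM included Stim1, Stim2, Orai1 and Orai2 of store-operated calcium entry, the IP3 receptor Itpr2, the mechanosensitive channel Piezo1, and the ATP receptors P2rx7 and P2ry2.

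**Figure D1:**
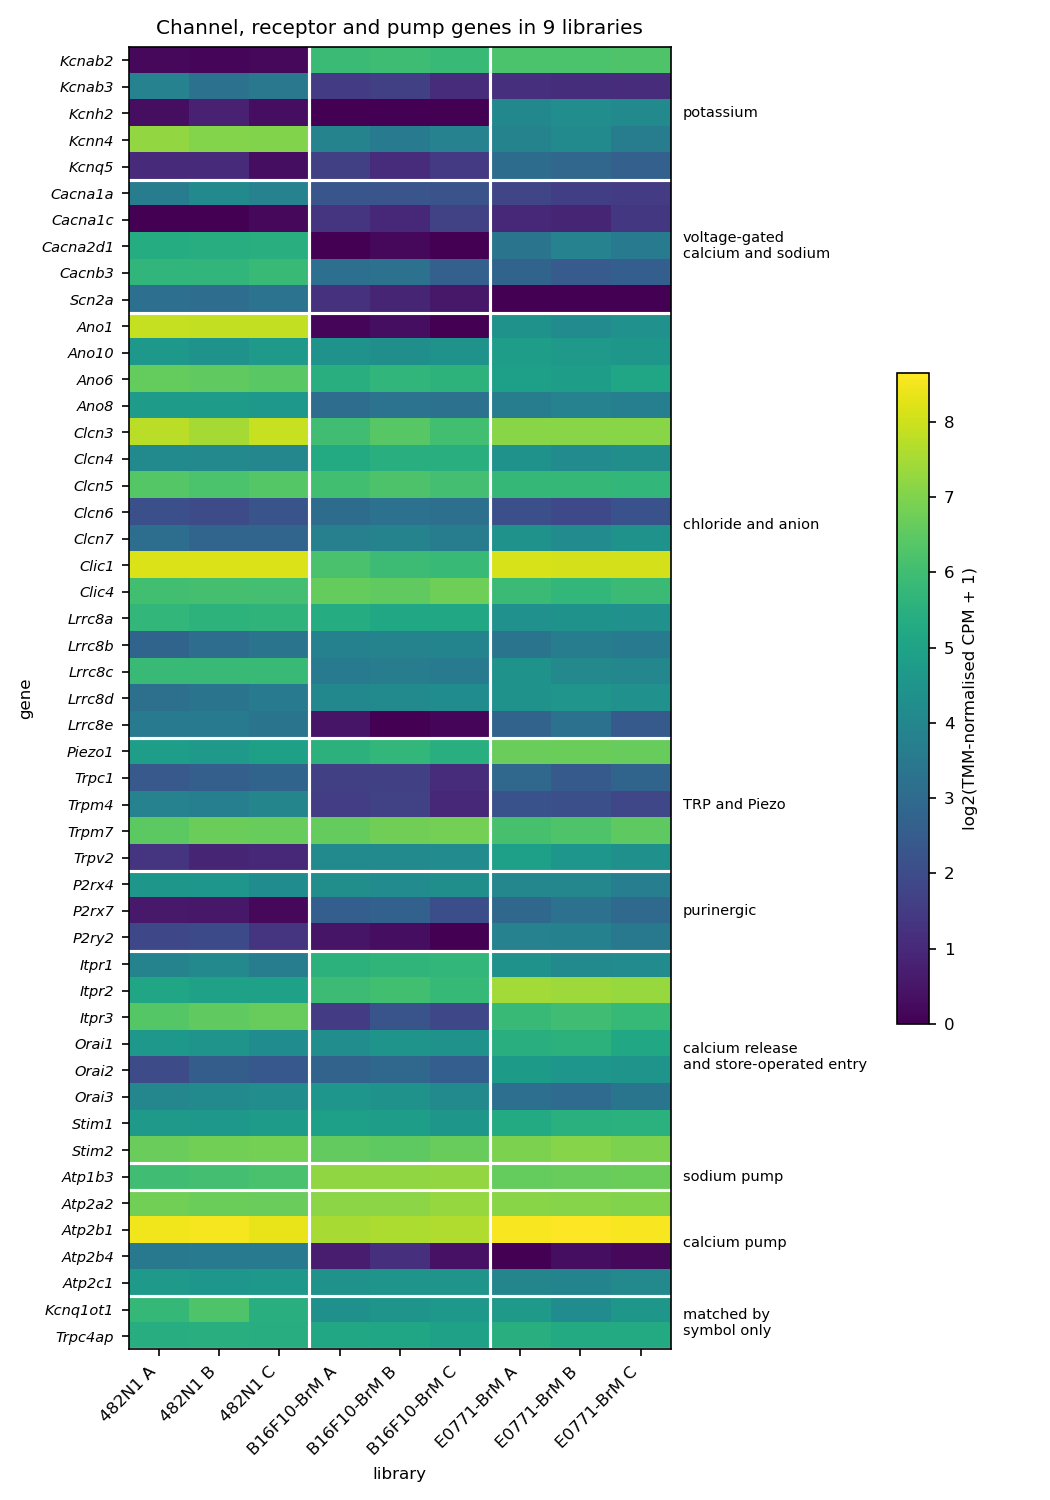
Levels of the genes in each library, as log2 of TMM-normalised CPM plus 1, with genes in rows grouped by role and libraries A, B and C of each line in columns. The 3 libraries of a line look alike in most rows, and dark blocks mark lines in which a gene had few or no counts, such as Ano1, Cacna2d1 and Lrrc8e in B16F10-BrM.

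**Figure D2:**
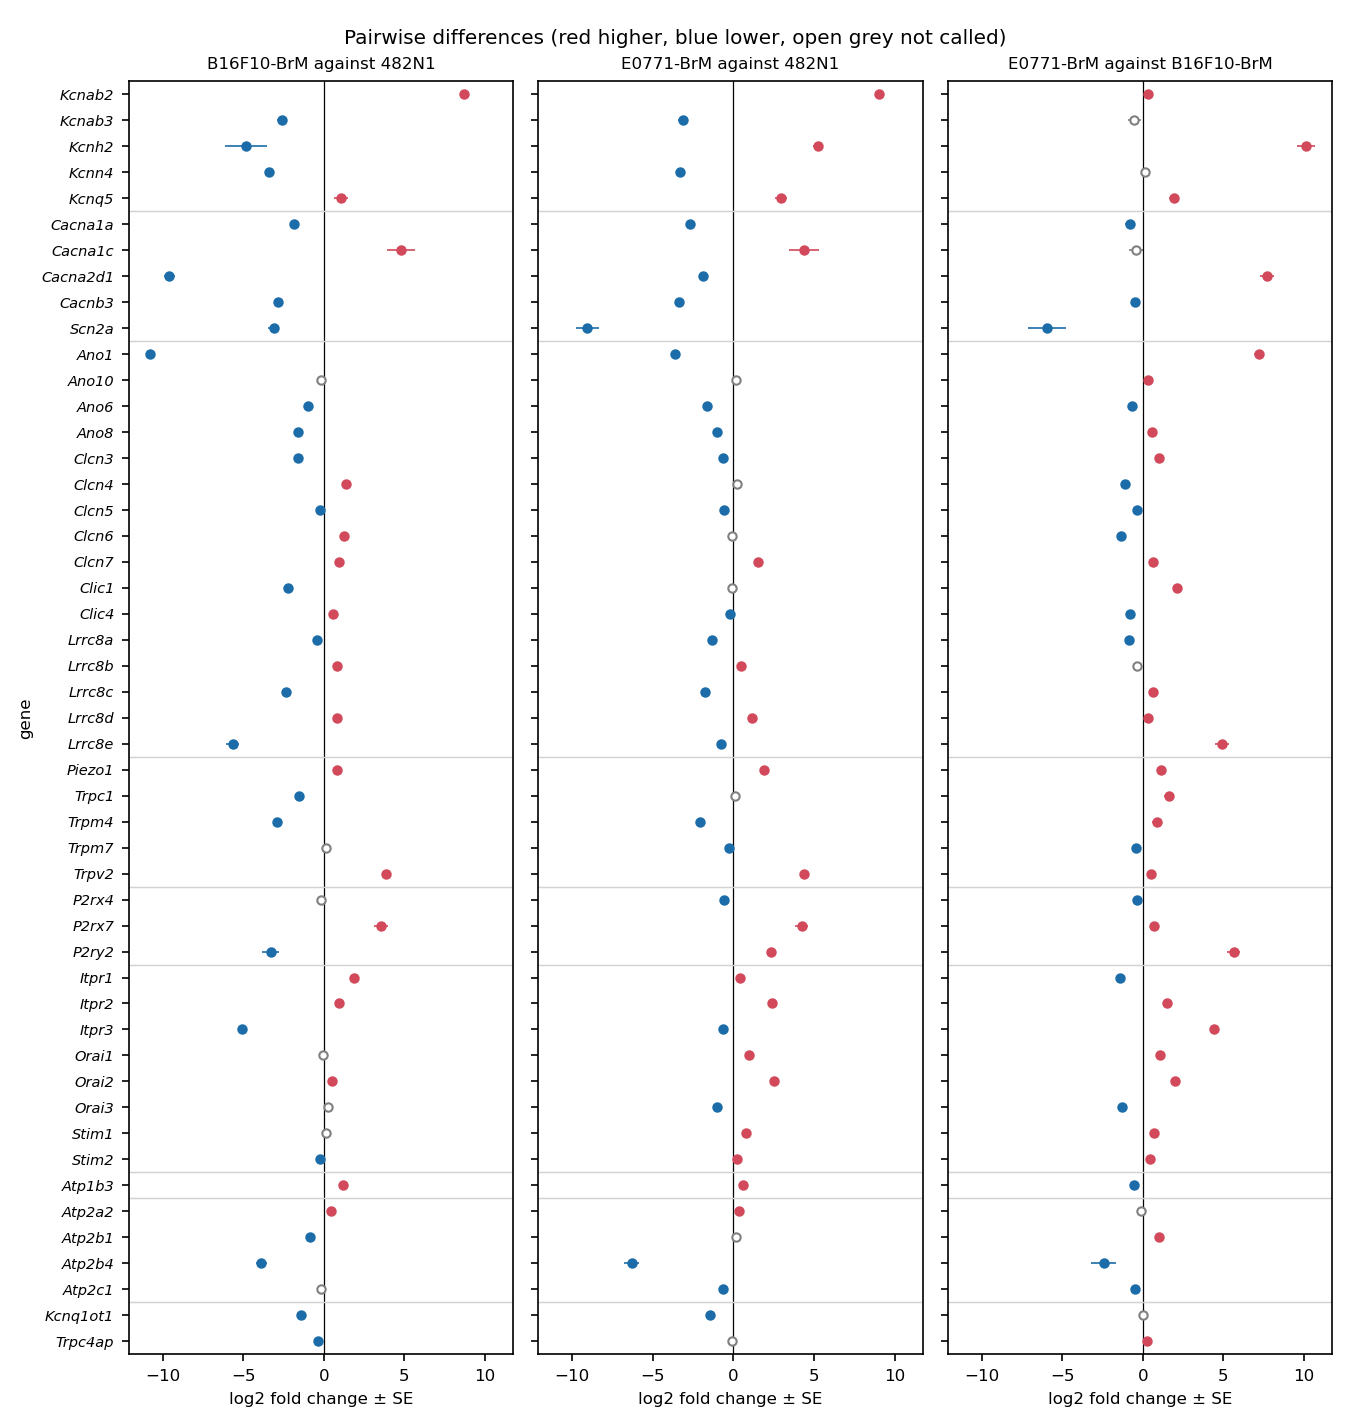
Fitted log2 fold changes ± SE of the genes in the 3 pairwise comparisons, with called higher values in red, called lower values in blue and uncalled values as open grey points. Most points are filled in each panel. The values of Kcnh2 against B16F10-BrM and of Scn2a against E0771-BrM rest on lines with no count and are not bounds.

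Ano1, Cacna2d1, Itpr3 and Lrrc8e had at least 5 CPM in both other lines and at most 1/20 of it in B16F10-BrM. The share of all genes that met this rule was not counted, and the pattern was not particular to these genes. Among the 51 measured related genes listed further on, only Gja1 and Ank3 met it. Gja1 had 8.42, 0 and 62.7 CPM in 482N1, B16F10-BrM and E0771-BrM, and Ank3 had 86.4, 0.0836 and 136. Ano1, a calcium-activated chloride channel, had counts of 1833, 1920 and 1842 in 482N1, 1, 2 and 0 in B16F10-BrM, and 161, 142 and 157 in E0771-BrM, always in the order A, B, C. The melanoma line was close to zero in every library, and the lung line stood well above the breast line. The 482N1 level was 2036 times that of B16F10-BrM (95% counting interval 696 to 9878, from 3 counts in B16F10-BrM), and the E0771-BrM level was 165 times that of B16F10-BrM (56.3 to 805). Without library B of B16F10-BrM, which held 2 of the 3 counts, the log2 fold changes against 482N1 and of E0771-BrM went from -10.81 to -11.70 and from 7.19 to 8.08. Ano1 was also lower in E0771-BrM than in 482N1 (log2 fold change -3.62 ± 0.10, adjusted p = 4.00e-34). Intervals of this kind, and the floors used further on, cover counting error only.

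Cacna2d1, the alpha2delta subunit of voltage-gated calcium channels, had counts of 311, 342 and 341 in 482N1, 0, 1 and 0 in B16F10-BrM, and 72, 110 and 89 in E0771-BrM. Its 482N1 level was 1085 times that of B16F10-BrM (194 to 42913, from 1 count), and its E0771-BrM level 292 times (52.0 to 11593), and without library B of B16F10-BrM, which held that count, the line is at 0. The lines did not overlap, and E0771-BrM was below 482N1 (log2 fold change -1.89 ± 0.15, adjusted p = 2.27e-16). Itpr3, an IP3 receptor, had counts of 642, 767 and 785 in 482N1, 18, 30 and 23 in B16F10-BrM, and 444, 531 and 444 in E0771-BrM. It was low but present in the melanoma line, with a log2 fold change of -5.06 ± 0.15 against 482N1 (adjusted p = 1.61e-32). Lrrc8e, a subunit of the volume-regulated anion channel, had 86, 91 and 72 counts in 482N1, 4, 0 and 1 in B16F10-BrM, and 45, 69 and 36 in E0771-BrM. Its log2 fold change in B16F10-BrM against 482N1 was -5.66 ± 0.42 (adjusted p = 5.93e-17), and -7.10 without library A of B16F10-BrM, which held 4 of the 5 counts. Against B16F10-BrM, E0771-BrM was higher by 4.91 ± 0.46, and by 6.35 without that library. Lrrc8e was also lower in E0771-BrM than in 482N1, with a log2 fold change of -0.75 ± 0.23 (adjusted p = 0.00303), which was -0.40 (adjusted p = 0.364) in library B of both lines alone, a fit in which each lone library was taken to vary like the libraries of B16F10-BrM.

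The 250 bases before the start of these 4 genes are shown because the genes share one pattern across the lines. The sequences are from RefSeq on build GRCm38.p6, on the strand of the gene, and each gene has 1 start in that table. Capitals mark matches, on either strand, to the GC box GGGCGG, the E-boxes CACGTG and CATGTG, the AP-1 motif TGANTCA and TATAAA, and neighbouring GC boxes may overlap.
Ano1: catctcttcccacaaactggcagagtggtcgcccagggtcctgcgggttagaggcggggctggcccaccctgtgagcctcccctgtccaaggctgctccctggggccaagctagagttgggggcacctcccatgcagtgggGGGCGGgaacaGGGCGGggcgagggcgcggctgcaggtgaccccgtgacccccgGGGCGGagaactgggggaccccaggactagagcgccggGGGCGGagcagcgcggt
Cacna2d1: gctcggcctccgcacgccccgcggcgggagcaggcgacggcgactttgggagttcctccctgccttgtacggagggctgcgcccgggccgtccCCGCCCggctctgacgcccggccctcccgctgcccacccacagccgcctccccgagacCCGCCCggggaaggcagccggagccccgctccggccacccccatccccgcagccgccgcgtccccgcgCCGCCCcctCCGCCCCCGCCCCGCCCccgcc
Itpr3: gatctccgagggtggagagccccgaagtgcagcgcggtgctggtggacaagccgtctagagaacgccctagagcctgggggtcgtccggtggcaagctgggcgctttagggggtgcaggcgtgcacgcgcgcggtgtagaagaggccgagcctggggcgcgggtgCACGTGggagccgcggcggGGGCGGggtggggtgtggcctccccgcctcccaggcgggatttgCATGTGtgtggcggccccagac
Lrrc8e: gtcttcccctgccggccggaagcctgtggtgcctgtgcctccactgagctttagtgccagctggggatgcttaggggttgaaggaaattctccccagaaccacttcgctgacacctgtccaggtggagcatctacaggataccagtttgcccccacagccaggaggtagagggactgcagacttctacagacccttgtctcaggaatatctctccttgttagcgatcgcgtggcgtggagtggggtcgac
The windows lie at chr7:144738574-144738823 on the minus strand for Ano1, and on the plus strand at chr5:15934441-15934690 for Cacna2d1, chr17:27057054-27057303 for Itpr3 and chr8:4226577-4226826 for Lrrc8e. GC boxes numbered 4 before Ano1, 6 before Cacna2d1 and 1 before Itpr3, which also had 1 CACGTG and 1 CATGTG, and the Lrrc8e window held no match to any of the 5 motifs. The 4 windows therefore share no motif among those searched. G and C made up 72.0%, 82.4%, 72.0% and 58.0% of the bases of the Ano1, Cacna2d1, Itpr3 and Lrrc8e windows. A match is a description of the letters and not a site of binding.

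Windows of the 250 bases before a start were found for 43 of the 50 genes, 62 windows in all. GGGCGG was present in 58.1% of these windows, against 32.7% of all 32851 windows and 60.0% of the 10999 windows of genes in the count table. CACGTG was present in 10 of the 62 (16.1%), against 6.02% of all windows and 8.62% of those of the table's genes. TGANTCA was present in 4.84% of the windows (4.25% for the table's genes), CATGTG in 9.68% (6.91%) and TATAAA in 4.84% (6.11%). The share with a GC box lay near that of the other genes in the table, and the windows were not tested against them. Some genes gave several windows, and windows of P2ry2 and of Trpv2 overlapped, so the 62 windows are not independent. The higher share with CACGTG is therefore a description only.

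Of the 5 potassium channel genes, all were called in both comparisons with 482N1, with 2 higher and 3 lower in B16F10-BrM and 3 higher and 2 lower in E0771-BrM. Of all genes, 38.0% were called higher and 39.9% lower in B16F10-BrM, and 37.7% and 40.4% in E0771-BrM. Their summed level was 150 ± 15.2 CPM in 482N1 against 74.8 ± 1.56 in B16F10-BrM and 112 ± 2.2 in E0771-BrM. Kcnn4, a calcium-activated potassium channel that hyperpolarises cells when calcium rises, had counts of 1185, 1102 and 1015 in 482N1, 130, 89 and 115 in B16F10-BrM, and 108, 139 and 91 in E0771-BrM. The lung line stood apart, and the libraries of the other lines overlapped. Its log2 fold change was -3.44 ± 0.12 in B16F10-BrM and -3.31 ± 0.12 in E0771-BrM against 482N1 (adjusted p = 3.38e-30 and 2.12e-29), and 0.13 ± 0.14 between the brain metastatic lines (adjusted p = 0.416). Kcnab3, a beta subunit of voltage-gated potassium channels, was also highest in 482N1, with counts of 102, 72 and 80 in 482N1, 18, 17 and 10 in B16F10-BrM, and 10, 10 and 9 in E0771-BrM. Its log2 fold change against 482N1 was -2.62 ± 0.27 in B16F10-BrM (adjusted p = 3.30e-12) and -3.14 ± 0.29 in E0771-BrM (adjusted p = 1.61e-13).

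Kcnab2, another beta subunit of these channels, had the opposite pattern, with counts of 1, 1 and 1 in 482N1, 561, 487 and 487 in B16F10-BrM, and 580, 606 and 612 in E0771-BrM. Its level in B16F10-BrM was 469 times that in 482N1 (160 to 2275, from 3 counts), and in E0771-BrM 592 times (202 to 2875). Kcnab2 was also higher in E0771-BrM than in B16F10-BrM, by 0.34 ± 0.09 on the log2 scale (adjusted p = 0.00135). Kcnh2, the hERG potassium channel of cardiac repolarisation, had 2, 6 and 2 counts in 482N1, 0 in each B16F10-BrM library, and 121, 149 and 132 in E0771-BrM. The breast line stood far above both others, at least 145-fold higher there than in B16F10-BrM when the latter is set to a floor of 3 counts over its libraries. Against 482N1 the log2 fold change of Kcnh2 in E0771-BrM was 5.26 ± 0.33 (adjusted p = 3.29e-19), and it was 5.94 without library B of 482N1, which held 6 of the 10 counts. Kcnq5, a channel of the slow M-type potassium current, had 8, 9 and 2 counts in 482N1, 20, 9 and 15 in B16F10-BrM, and 58, 52 and 43 in E0771-BrM, and was 2.97 ± 0.37 higher in E0771-BrM than in 482N1 (adjusted p = 5.14e-10). Its smaller difference between B16F10-BrM and 482N1, 1.07 ± 0.45 (adjusted p = 0.0293), was not called without library C of 482N1 (adjusted p = 0.193), library A of B16F10-BrM (0.131) or library C of B16F10-BrM (0.0588).

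**Figure D3:**
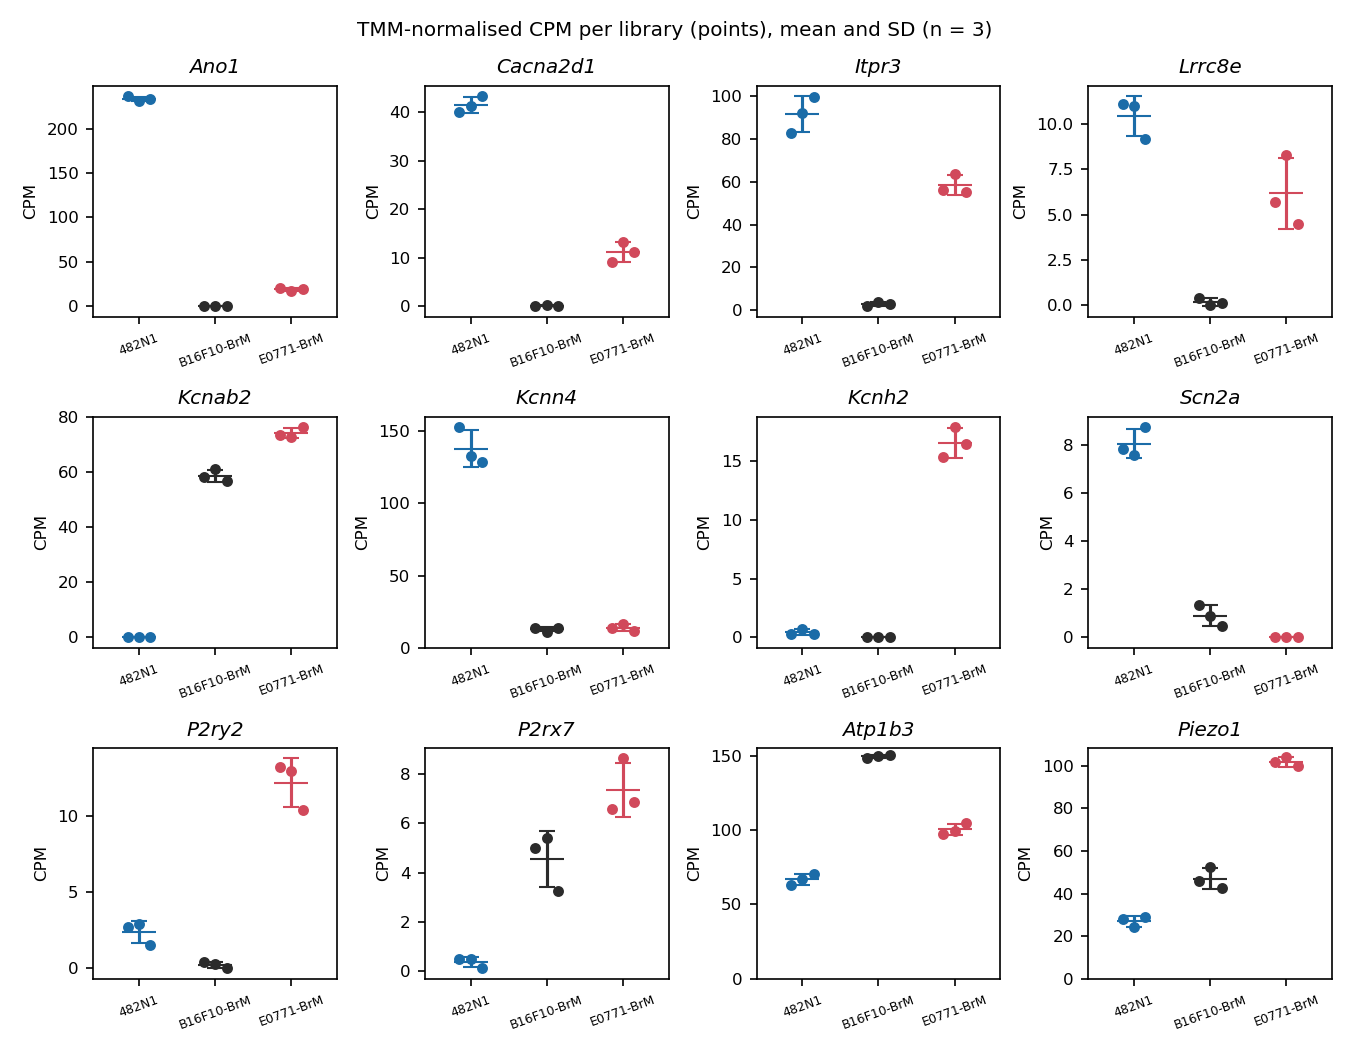
TMM-normalised CPM per library for a choice of the genes, one panel each, with points for libraries A, B and C of each line and bars for the mean ± SD (n = 3). Ano1, Cacna2d1, Itpr3 and Lrrc8e are near 0 in B16F10-BrM, Kcnab2 is near 0 in 482N1, and Piezo1 is highest in E0771-BrM.

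Of the 5 voltage-gated calcium and sodium channel genes, 4 were lower and 1 was higher than in 482N1 in both B16F10-BrM and E0771-BrM. Among all genes, 39.9% and 40.4% were called lower than in 482N1 in these lines, and 38.0% and 37.7% higher. Their summed level was 116 ± 6.70 CPM in 482N1 against 13.5 ± 1.63 in B16F10-BrM and 19.6 ± 1.05 in E0771-BrM. Cacnb3, a cytoplasmic beta subunit that brings the pore to the membrane, had counts of 394, 419 and 458 in 482N1, 77, 66 and 46 in B16F10-BrM, and 46, 38 and 40 in E0771-BrM. The lung line lay far above both others, with log2 fold changes of -2.88 ± 0.14 in B16F10-BrM (adjusted p = 2.57e-23) and -3.37 ± 0.16 in E0771-BrM (adjusted p = 8.80e-25). Cacna1a, the pore of P/Q-type calcium channels, had counts of 88, 135 and 105 in 482N1, 37, 31 and 31 in B16F10-BrM, and 20, 17 and 15 in E0771-BrM. The 3 lines did not overlap, and Cacna1a was lower than in 482N1, with a log2 fold change of -1.85 ± 0.21 in B16F10-BrM and -2.66 ± 0.24 in E0771-BrM (adjusted p = 9.69e-11 and 4.44e-14). Between the brain metastatic lines, Cacnb3 was lower in E0771-BrM, with a log2 fold change of -0.50 ± 0.19 (adjusted p = 0.0205) with overlapping libraries. This call was lost without library A or B of B16F10-BrM (adjusted p = 0.0977 and 0.0958) or library B or C of E0771-BrM (0.0824 and 0.0502). It was also lost with limma-voom (0.0668).

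Scn2a, a neuronal voltage-gated sodium channel, had counts of 61, 63 and 69 in 482N1, 13, 7 and 4 in B16F10-BrM, and 0 in each E0771-BrM library. Scn2a reached at least a 65.1-fold higher level in 482N1 than in E0771-BrM, and its log2 fold change in B16F10-BrM against 482N1 was -3.12 ± 0.33 (adjusted p = 1.28e-11). Cacna1c, the pore of L-type calcium channels, was the gene of this group that was higher than in 482N1, with counts of 0, 0 and 1 in 482N1, 14, 8 and 19 in B16F10-BrM, and 8, 7 and 13 in E0771-BrM. Its B16F10-BrM level was 37.5 times that of 482N1 (6.37 to 1519, from 1 count), an interval that the few counts leave wide, and without library C of 482N1 that line is at 0. The libraries of the brain metastatic lines overlapped for Cacna1c (log2 fold change -0.43 ± 0.45, adjusted p = 0.384).

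The 16 chloride and anion genes were the largest group. In B16F10-BrM 6 were higher and 9 lower than in 482N1, in E0771-BrM 3 were higher and 9 lower than in 482N1, and E0771-BrM had 9 higher and 6 lower than B16F10-BrM. The shares of all genes called higher were 38.0%, 37.7% and 37.2% in these comparisons, and those called lower 39.9%, 40.4% and 36.5%. Their summed level was 1186 ± 37.8 CPM in 482N1 against 516 ± 12.7 in B16F10-BrM and 725 ± 12 in E0771-BrM. Clic1, a chloride intracellular channel protein, had counts of 2297, 2458 and 2335 in 482N1, 677, 480 and 489 in B16F10-BrM, and 2181, 2259 and 2208 in E0771-BrM. The melanoma line was low, with a log2 fold change of -2.24 ± 0.08 against 482N1 (adjusted p = 2.25e-29) and a difference of 2.13 ± 0.08 between E0771-BrM and it (adjusted p = 2.60e-28). The other measured member of this family, Clic4, went the other way, with counts of 498, 559 and 519 in 482N1, 939, 739 and 922 in B16F10-BrM, and 463, 437 and 471 in E0771-BrM. Clic4 was higher in B16F10-BrM than in 482N1 by 0.59 ± 0.09 (adjusted p = 3.66e-08). Its small difference between E0771-BrM and 482N1, -0.22 ± 0.09 (adjusted p = 0.0277), was not called without library B of 482N1 (adjusted p = 0.0632) or of E0771-BrM (0.140). The share of Clic4 in the reads of the pair was 61.4% in B16F10-BrM and 18.2% and 17.1% in 482N1 and E0771-BrM. In reads per exon base, Clic4 made up 36.2% in B16F10-BrM and 7.33% and 6.84% in 482N1 and E0771-BrM. Clic1 thus held the larger share per exon base in each line, at 63.8% in B16F10-BrM.

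The other anoctamins are not all chloride channels. Ano6, a phospholipid scramblase of the plasma membrane, had counts of 756, 764 and 686 in 482N1, 414, 404 and 410 in B16F10-BrM, and 224, 235 and 269 in E0771-BrM. The lines did not overlap, and its log2 fold changes against 482N1 were -0.97 ± 0.10 in B16F10-BrM (adjusted p = 7.96e-13) and -1.62 ± 0.10 in E0771-BrM (adjusted p = 9.86e-20). Ano8, which tethers the endoplasmic reticulum to the plasma membrane, was also highest in 482N1, at 25.3 ± 1.66 CPM against 8.34 ± 0.667 in B16F10-BrM and 12.3 ± 0.889 in E0771-BrM. Ano10 lay between 20.1 ± 1.14 and 25.3 ± 2.70 CPM in the 3 lines, and was called only between E0771-BrM and B16F10-BrM (0.33 ± 0.13, adjusted p = 0.0191). That call was lost without library B of B16F10-BrM (adjusted p = 0.0733) or library A of E0771-BrM (0.124).

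Clcn3 to Clcn7 encode chloride and proton exchangers of endosomes and lysosomes, and each line held a different member above both others. Clcn3 had counts of 1655, 1502 and 1914 in 482N1, 613, 663 and 555 in B16F10-BrM, and 1090, 1149 and 1113 in E0771-BrM. It was lower than in 482N1, with a log2 fold change of -1.59 ± 0.10 in B16F10-BrM (adjusted p = 1.40e-16) and -0.62 ± 0.09 in E0771-BrM (adjusted p = 3.28e-07). Clcn4 was highest in B16F10-BrM, with counts of 366, 332 and 366 there, 125, 132 and 120 in 482N1, and 162, 142 and 149 in E0771-BrM, and a log2 fold change of 1.37 ± 0.12 against 482N1 (adjusted p = 3.69e-14). Clcn6 was also highest in B16F10-BrM, at 8.03 ± 0.578 CPM against 3.39 ± 0.398 in 482N1 and 3.18 ± 0.379 in E0771-BrM. Clcn7, the exchanger of lysosomes and of the bone-resorbing osteoclast, was highest in E0771-BrM, at 19.4 ± 1.86 CPM against 12.6 ± 1.07 in B16F10-BrM and 6.65 ± 0.940 in 482N1. Between the last 2 lines it was 0.92 ± 0.18 higher in B16F10-BrM on the log2 scale (adjusted p = 1.09e-05). Clcn5 was highest in 482N1 at 78.9 ± 4.89 CPM, and its call against B16F10-BrM (-0.21 ± 0.09, adjusted p = 0.0289) was lost without library A or C of 482N1 (adjusted p = 0.0867 and 0.0856), library A or C of B16F10-BrM (0.125 and 0.0901), or with upper-quartile scaling (0.118).

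Lrrc8a, the subunit that every volume-regulated anion channel needs, had counts of 401, 396 and 384 in 482N1, 382, 277 and 301 in B16F10-BrM, and 158, 171 and 158 in E0771-BrM. Its log2 fold change against 482N1 was -0.43 ± 0.10 in B16F10-BrM (adjusted p = 0.000264) and -1.30 ± 0.11 in E0771-BrM (adjusted p = 1.46e-14), so the order was 482N1, B16F10-BrM, E0771-BrM. Its partner subunits set what the channel lets through. Lrrc8c had counts of 436, 473 and 458 in 482N1, 106, 94 and 94 in B16F10-BrM, and 165, 131 and 120 in E0771-BrM, with log2 fold changes against 482N1 of -2.34 ± 0.13 (adjusted p = 6.02e-22) and -1.73 ± 0.12 (adjusted p = 1.01e-17). Lrrc8b and Lrrc8d, in contrast, were lowest in 482N1, at 7.55 ± 1.60 and 9.35 ± 1.34 CPM, against 13.5 ± 0.443 and 16.7 ± 1.04 in B16F10-BrM and 10.5 ± 1.21 and 20.7 ± 0.898 in E0771-BrM. Lrrc8b, Lrrc8c and Lrrc8d are neighbours on mouse chromosome 5 in RefSeq, with 1 gene between Lrrc8c and Lrrc8d, and Lrrc8c went the opposite way to Lrrc8b and Lrrc8d in each comparison with 482N1. The difference of Lrrc8b between E0771-BrM and 482N1 (0.47 ± 0.19, adjusted p = 0.0228) was not called without library A of 482N1 (adjusted p = 0.139) or library B or C of E0771-BrM (0.0890 and 0.0517). Between E0771-BrM and B16F10-BrM, Lrrc8b was not called (-0.37 ± 0.17, adjusted p = 0.0552). It was called there with upper-quartile scaling (0.0347), limma-voom (0.0436) and in other alternatives. That of Lrrc8d between E0771-BrM and B16F10-BrM (0.32 ± 0.14, adjusted p = 0.0437) was lost without library A or B of B16F10-BrM (0.134 and 0.0795), without library A, B or C of E0771-BrM (0.0750, 0.120 and 0.0542), with DESeq2 (0.0645) and with upper-quartile scaling (0.0770).

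Within the Lrrc8 family, reads per exon base of GENCODE M21 put Lrrc8a at 44.7% of the family in 482N1 against 52.6% in B16F10-BrM and 30.8% in E0771-BrM. Lrrc8c made up 31.9%, 10.0% and 16.2% and Lrrc8d 8.63%, 24.6% and 32.4% in the same order of lines. Lrrc8a was thus the most abundant subunit per exon base in 482N1 and B16F10-BrM, and in E0771-BrM the library ranges of Lrrc8a (29.7% to 32.2%) and Lrrc8d (31.7% to 33.3%) overlapped. Lrrc8e held 10.4% in E0771-BrM and 0.28% in B16F10-BrM.

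**Figure D4:**
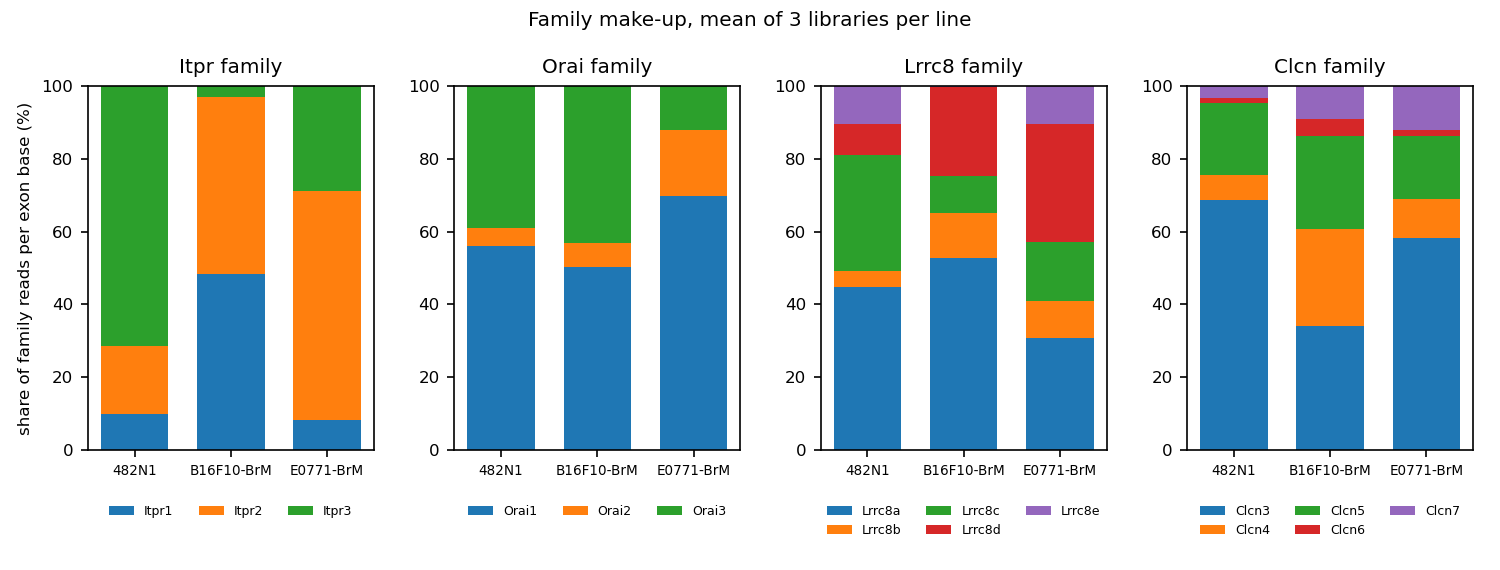
Share of each member in the reads per exon base of its family (percent, mean of 3 libraries per line, stacked to 100) for the Itpr, Orai, Lrrc8 and Clcn families. Itpr3 fills 71.4% of the Itpr bar in 482N1 and 2.94% in B16F10-BrM, and Itpr2 fills 63.1% in E0771-BrM.

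Of the 5 TRP and Piezo genes, 4 were higher and 1 was lower in E0771-BrM than in B16F10-BrM, and 2 were higher and 2 lower than in 482N1 in each brain metastatic line. Between E0771-BrM and B16F10-BrM, 37.2% of all genes were called higher and 36.5% lower. Against 482N1 these shares were 38.0% and 39.9% in B16F10-BrM and 37.7% and 40.4% in E0771-BrM. Piezo1, a mechanosensitive cation channel, had counts of 216, 201 and 230 in 482N1, 440, 419 and 367 in B16F10-BrM, and 803, 870 and 800 in E0771-BrM. The 3 lines formed separate steps, with log2 fold changes of 0.80 ± 0.10 (adjusted p = 2.71e-09) and 1.91 ± 0.10 (adjusted p = 1.78e-22) against 482N1. Trpv2, a calcium-permeable channel, had counts of 12, 7 and 8 in 482N1, 161, 128 and 146 in B16F10-BrM, and 223, 188 and 154 in E0771-BrM, and was higher than in 482N1 by 3.86 ± 0.25 (adjusted p = 2.62e-19) and 4.35 ± 0.24 (adjusted p = 8.34e-22). Its difference between the brain metastatic lines, 0.49 ± 0.15 (adjusted p = 0.00380), was lost without library A of E0771-BrM (adjusted p = 0.0838).

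Trpm4, a monovalent cation channel opened by calcium, had 102, 103 and 112 counts in 482N1, 19, 18 and 8 in B16F10-BrM, and 28, 28 and 21 in E0771-BrM. It was highest in 482N1, as were the calcium-activated Ano1 and Kcnn4, with log2 fold changes of -2.93 ± 0.25 in B16F10-BrM (adjusted p = 1.23e-14) and -2.05 ± 0.23 in E0771-BrM (adjusted p = 4.67e-11). Between the brain metastatic lines it was 0.88 ± 0.31 higher in E0771-BrM (adjusted p = 0.0105), a call lost without library C of B16F10-BrM (adjusted p = 0.1). Trpc1 was lowest in B16F10-BrM, with 20, 17 and 10 counts there, 34, 43 and 47 in 482N1, and 50, 37 and 47 in E0771-BrM. Its log2 fold change was -1.52 ± 0.30 in B16F10-BrM against 482N1 (adjusted p = 1.06e-05), and 482N1 and E0771-BrM overlapped (0.10 ± 0.25, adjusted p = 0.727). Trpm7, a magnesium-permeable channel fused to a kinase, differed little, at 96.6 ± 7.46 CPM in 482N1 against 106 ± 7.96 in B16F10-BrM and 79.0 ± 10.8 in E0771-BrM. Its call between E0771-BrM and 482N1 (-0.29 ± 0.09, adjusted p = 0.00378) came with overlapping libraries and was lost without library A of E0771-BrM (adjusted p = 0.0529).

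Of the 3 purinergic receptor genes measured, P2ry2 and P2rx7 were highest in E0771-BrM and P2rx4 lowest there. P2ry2, a G protein-coupled receptor for ATP and UTP that signals through IP3, had counts of 21, 24 and 12 in 482N1, 4, 2 and 0 in B16F10-BrM, and 104, 108 and 83 in E0771-BrM. The lines did not overlap, and E0771-BrM was higher than 482N1 by 2.35 ± 0.26 (adjusted p = 3.77e-11) and higher than B16F10-BrM by 5.64 ± 0.39 (adjusted p = 8.82e-18), or by 6.48 without library A of B16F10-BrM, which held 4 of its 6 counts. B16F10-BrM was lower than 482N1, with a log2 fold change of -3.29 ± 0.53 (adjusted p = 2.62e-07), or -4.13 without that library. P2rx7, an ATP-gated cation channel known from immune cells, had 4, 4 and 1 counts in 482N1, 48, 43 and 28 in B16F10-BrM, and 52, 72 and 55 in E0771-BrM. It was low in 482N1, with log2 fold changes of 3.55 ± 0.42 (adjusted p = 2.09e-10) and 4.24 ± 0.39 (adjusted p = 1.25e-13) in B16F10-BrM and E0771-BrM. P2rx4, another ATP-gated channel, had 177, 184 and 139 counts in 482N1, 178, 135 and 162 in B16F10-BrM, and 120, 125 and 97 in E0771-BrM, and was lower in E0771-BrM than in 482N1, with a log2 fold change of -0.56 ± 0.15 (adjusted p = 0.000569). P2rx4 and P2rx7 lie side by side on chromosome 5 in RefSeq. The calls between E0771-BrM and B16F10-BrM were lost for P2rx7 (0.69 ± 0.25, adjusted p = 0.0103) without library C of B16F10-BrM or library B of E0771-BrM (0.0888 and 0.0697), and for P2rx4 (-0.36 ± 0.15, adjusted p = 0.0251) without library A or C of B16F10-BrM or library C of E0771-BrM (0.0627, 0.0711 and 0.142).

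All 8 genes of calcium release and store-operated entry were called between E0771-BrM and each other line, with 6 higher and 2 lower both times, and B16F10-BrM had 3 higher and 2 lower than 482N1. Of all genes, 78.1% and 73.7% were called in the comparisons of E0771-BrM with 482N1 and B16F10-BrM. Called higher in E0771-BrM were 37.7% and 37.2%, and called lower 40.4% and 36.5%. Between B16F10-BrM and 482N1, 38.0% of all genes were called higher and 39.9% lower in B16F10-BrM. Their summed level was 487 ± 19.7 CPM in E0771-BrM, 312 ± 11.6 in 482N1 and 278 ± 3.76 in B16F10-BrM. The 3 IP3 receptors, which release calcium from the endoplasmic reticulum, were distributed unequally. Itpr1 was highest in B16F10-BrM, with counts of 446, 392 and 451 there, 106, 133 and 90 in 482N1, and 165, 137 and 136 in E0771-BrM, and a log2 fold change of 1.85 ± 0.13 against 482N1 (adjusted p = 7.60e-18). Itpr2 was highest in E0771-BrM, with counts of 1392, 1399 and 1271 there, 264, 252 and 237 in 482N1, and 578, 512 and 472 in B16F10-BrM, and was 2.41 ± 0.09 above 482N1 (adjusted p = 4.21e-28). With Itpr3, given above, highest in 482N1, each line therefore held a different IP3 receptor above both other lines. Per exon base, Itpr3 made up 71.4% of the family in 482N1 against 2.94% in B16F10-BrM and 28.8% in E0771-BrM. Itpr2 made up 18.8%, 48.9% and 63.1% and Itpr1 9.77%, 48.2% and 8.12% in the same order. The smaller difference of Itpr1 between E0771-BrM and 482N1 (0.40 ± 0.14, adjusted p = 0.0106) was lost without library C of 482N1 (adjusted p = 0.0915) or library A of E0771-BrM (0.101).

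Stim1 and Stim2, the calcium sensors of the endoplasmic reticulum, were both highest in E0771-BrM. Stim1 had 187, 194 and 204 counts in 482N1, 274, 217 and 199 in B16F10-BrM, and 301, 371 and 365 in E0771-BrM, and was 0.81 ± 0.12 higher in E0771-BrM than in 482N1 (adjusted p = 2.84e-08). 482N1 and B16F10-BrM overlapped for Stim1 (0.11 ± 0.12, adjusted p = 0.414). Stim2 had 791, 929 and 895 counts in 482N1, 906, 710 and 841 in B16F10-BrM, and 973, 1127 and 992 in E0771-BrM, a difference of 0.44 ± 0.08 between E0771-BrM and B16F10-BrM (adjusted p = 3.31e-06). Its differences from 482N1 were small, -0.22 ± 0.08 in B16F10-BrM (adjusted p = 0.0136) and 0.22 ± 0.08 in E0771-BrM (adjusted p = 0.0101). The first was lost without library C of 482N1 (adjusted p = 0.0547), library B of B16F10-BrM (0.0706) or with upper-quartile scaling (0.0737), and the second without library A of 482N1 (0.0609) or library B of E0771-BrM (0.0671).

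Orai1, Orai2 and Orai3 form the pores of store-operated calcium entry. Orai1 had counts of 182, 179 and 138 in 482N1, 172, 171 and 180 in B16F10-BrM, and 336, 389 and 278 in E0771-BrM, so that E0771-BrM stood above both others, which overlapped. It was higher in E0771-BrM than in 482N1 by 0.99 ± 0.13 (adjusted p = 1.90e-09) and than in B16F10-BrM by 1.04 ± 0.13 (adjusted p = 4.59e-10). Orai2 had 23, 40 and 33 counts in 482N1, 56, 51 and 43 in B16F10-BrM, and 200, 188 and 173 in E0771-BrM, which was 2.53 ± 0.19 above 482N1 (adjusted p = 1.66e-16). Orai3, in contrast, was lowest in E0771-BrM, with 118, 135 and 143 counts in 482N1, 216, 162 and 144 in B16F10-BrM, and 63, 59 and 74 in E0771-BrM. It was lower in E0771-BrM than in 482N1, with a log2 fold change of -1.03 ± 0.17 (adjusted p = 4.50e-07) and than in B16F10-BrM (log2 fold change -1.30 ± 0.16, adjusted p = 1.31e-09). Per exon base, Orai3 made up 39.1%, 43.3% and 12.2% of the family in 482N1, B16F10-BrM and E0771-BrM, and Orai1 55.9%, 50.2% and 69.7%. The difference of Orai2 between B16F10-BrM and 482N1 (0.52 ± 0.23, adjusted p = 0.0345) was lost without library A of 482N1 (adjusted p = 0.185) or library A or B of B16F10-BrM (0.0693 and 0.108). This difference was also lost with limma-voom (0.0542) and with only the 2 lines compared (0.0558). For Orai3 that difference (0.27 ± 0.15, adjusted p = 0.0999) was called without library C of B16F10-BrM (0.0355) or with upper-quartile scaling (0.0447).

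The sodium pump exports sodium and imports potassium, and Atp1b3 encodes one of its beta subunits. Atp1b3 had counts of 491, 555 and 557 in 482N1, 1424, 1193 and 1295 in B16F10-BrM, and 769, 828 and 840 in E0771-BrM. The 3 lines did not overlap, and Atp1b3 was highest in B16F10-BrM (1.16 ± 0.08 above 482N1, adjusted p = 5.31e-18) and higher in E0771-BrM than in 482N1, by 0.59 ± 0.08 (adjusted p = 1.20e-08).

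Among the 4 calcium pumps, Atp2b4 differed most. Atp2b1 and Atp2b4 export calcium across the plasma membrane. Atp2b4 had counts of 81, 93 and 88 in 482N1, 6, 10 and 3 in B16F10-BrM, and 0, 2 and 1 in E0771-BrM, and its 482N1 level was 88.4 times that of E0771-BrM (29.9 to 431, from 3 counts). Library B of E0771-BrM held 2 of these 3 counts, and without it the log2 fold change went from -6.30 to -7.13. Its log2 fold change in B16F10-BrM against 482N1 was -3.88 ± 0.33 (adjusted p = 4.99e-15), and the lower level in E0771-BrM than in B16F10-BrM (adjusted p = 0.00468) was lost without library B of B16F10-BrM (adjusted p = 0.0540). Atp2b1 had counts of 2743, 3086 and 2608 in 482N1, 1754, 1530 and 1700 in B16F10-BrM, and 3012, 3357 and 3049 in E0771-BrM, and was lowest in B16F10-BrM, at -0.88 ± 0.07 against 482N1 (adjusted p = 1.36e-15). Between E0771-BrM and 482N1 its difference of 0.14 ± 0.07 (adjusted p = 0.0614) was called with the library letter as a block (0.0466) and in other alternatives. Atp2a2, the SERCA2 pump that refills the endoplasmic reticulum, had counts of 875, 869 and 805 in 482N1, 1357, 1139 and 1319 in B16F10-BrM, and 1075, 1127 and 1026 in E0771-BrM. It was higher than in 482N1 by 0.45 ± 0.08 in B16F10-BrM (adjusted p = 9.29e-07) and by 0.32 ± 0.08 in E0771-BrM (adjusted p = 0.000242). Atp2c1, the calcium and manganese pump of the Golgi, had 189, 185 and 185 counts in 482N1, 196, 168 and 185 in B16F10-BrM, and 112, 118 and 127 in E0771-BrM. It was lower in E0771-BrM than in 482N1, with a log2 fold change of -0.66 ± 0.13 (adjusted p = 1.89e-05), and was not called between B16F10-BrM and 482N1 (-0.15 ± 0.13, adjusted p = 0.271).

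The pair matched by symbol only was given the same fit. Kcnq1ot1, transcribed antisense to the potassium channel gene Kcnq1, had counts of 416, 641 and 339 in 482N1, 186, 171 and 202 in B16F10-BrM, and 193, 146 and 183 in E0771-BrM. Library B of 482N1 was the highest, and the log2 fold change against 482N1 was -1.44 ± 0.19 in B16F10-BrM and -1.43 ± 0.19 in E0771-BrM (adjusted p = 6.81e-06 and 7.91e-06). With library B of 482N1 and E0771-BrM alone the latter was -2.14. The libraries were stranded, but the strand setting of the counting is not given in the sources used here, so its reads cannot be told from those of the overlapping gene. Trpc4ap lay between 32.7 ± 2.52 and 41.4 ± 1.12 CPM in the 3 lines, with its lowest level in B16F10-BrM (-0.34 ± 0.11 against 482N1, adjusted p = 0.00377). Its call between E0771-BrM and B16F10-BrM (0.27 ± 0.11, adjusted p = 0.0215) was lost without library C of B16F10-BrM (adjusted p = 0.106) or library A of E0771-BrM (0.101).

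A list of 96 related genes outside the symbol rule, such as cotransporters, the mitochondrial calcium uniporter, regulators of the sodium pump and gap junction proteins, had 51 measured members. Of these, 40 were called between B16F10-BrM and 482N1 (15 higher, 25 lower), 42 between E0771-BrM and 482N1 (20 and 22) and 41 between E0771-BrM and B16F10-BrM (22 and 19), which is 78.4%, 82.4% and 80.4% of them, against 77.8%, 78.1% and 73.7% of all genes. Their median log2 fold changes were -0.41, -0.06 and 0.08 in these comparisons, where those of all genes were -0.04, -0.04 and 0.02. The genes named next were picked after their values were seen, for their link to the chloride, calcium and sodium pump genes above. Slc12a2, the sodium-potassium-chloride cotransporter that loads cells with chloride, had counts of 8238, 9344 and 8071 in 482N1, 116, 106 and 137 in B16F10-BrM, and 694, 735 and 744 in E0771-BrM. It followed the order of Ano1, with log2 fold changes of -6.28 ± 0.10 in B16F10-BrM and -3.58 ± 0.08 in E0771-BrM against 482N1 (adjusted p = 2.64e-44 and 1.03e-37). Mcu, the pore of the mitochondrial calcium uniporter, had 1668, 1704 and 1515 counts in 482N1, 167, 173 and 180 in B16F10-BrM, and 1588, 1762 and 1494 in E0771-BrM, and was lower in B16F10-BrM than in 482N1, with a log2 fold change of -3.35 ± 0.09 (adjusted p = 1.06e-33). Mcub, its dominant-negative partner, had 37, 35 and 41 counts in 482N1, 1, 1 and 2 in B16F10-BrM, and 600, 698 and 604 in E0771-BrM, and was higher in E0771-BrM than in 482N1 by 4.05 ± 0.14 (adjusted p = 1.22e-29). Fxyd5, a regulator of the sodium pump, was lowest in B16F10-BrM at 6.0 ± 0.665 CPM, against 31.7 ± 0.727 in 482N1 and 87.6 ± 8.03 in E0771-BrM.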

How the data were processed

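Raw counts per gene symbol were deposited by the authors, made from stranded poly(A) libraries (TruSeq). Per the submitters' processing notes, FastQC, TopHat2 2.0.10, Bowtie 1.0.0, SAMtools 0.1.19, Cufflinks 2.2.1 and mouse build GRCm39 were used, and the tool that counted reads, the annotation and the selection of the 11046 genes are not given in the sources used here. Absence from the table was not read as lack of expression.

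Tests on the deposited counts used edgeR 4.0.16 in R 4.3.3 (filterByExpr, TMM, robust quasi-likelihood fit with 1 coefficient per line over all 9 libraries). Two-sided F tests compared lines in pairs, p-values were adjusted by the Benjamini-Hochberg method over 11037 genes, and the threshold was 0.05. Highest in a line means that the larger of a gene's pairwise one-sided p-values passed after adjustment. SEs were derived from the F statistics. Lines with no count were set to a floor of 3 counts over the group, and lines with 1 to 3 counts got a ratio with an exact 95% interval. Counts of 7332390 to 9293348 per library set this precision. The values of 1 gene, which is counted in the totals, are not reported here. The genes and lists were chosen with earlier results of these data known. Named genes were those with the 10 largest and 10 smallest ratios of mean CPM plus 1 per comparison among called genes without overlap, the most abundant gene per role, and every member of the Itpr, Stim, Orai, Atp1b, Atp2a, Atp2b, Atp2c, P2rx and P2ry families. Ano8, Ano10, Clcn3, Clcn5, Lrrc8b, Lrrc8d, Trpc1 and Kcnq1ot1, outside that rule, were added to account for every gene after values were seen, and the 4 genes low in B16F10-BrM were grouped after values were seen. Reads per exon base used exon unions of GENCODE M21 basic, and promoters came from RefSeq on GRCm38.p6, not the submitters' build. Alternatives were DESeq2 1.42.0 and its size factors, upper-quartile scaling, limma-voom (limma 3.58.1), other filters, glmTreat against a 2-fold change, the library letter as a block, only the lines compared, library B alone for 482N1 and E0771-BrM (each lone library taken to vary like those of B16F10-BrM), removal of ribosomal RNA genes, and each library left out. The procedure was tested on simulated data of 10623 genes. Between B16F10-BrM and 482N1 it called 83.6% of genes changed by 1.5-fold and 98.5% of those changed by 2-fold. False calls made up 2.08% of the calls there and 5.53% between E0771-BrM and B16F10-BrM. The simulation drew every line from the 482N1 profile with a common dispersion and changed few genes, none with low expected counts. In the data most genes differed and some named genes had few counts, so these shares do not carry over.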

Additional observations from a re-analysis of the deposited data

How the results depend on the processing

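Counts of called genes moved by more than 1.5 times only when glmTreat asked for a change above 2-fold. That left 27 of the 50 genes for B16F10-BrM against 482N1, 25 for E0771-BrM against 482N1 and 16 for E0771-BrM against B16F10-BrM, and 21, 22 and 19 of the related genes. Of all genes, 31.5%, 30.3% and 26.3% were called in that setting. With each library left out in turn the counts ranged from 40 to 43, 40 to 43 and 40 to 45, from 48 to 50 in the joint test and from 35 to 38 for genes highest in a line, and for the related genes from 39 to 42, 39 to 42 and 37 to 42. Of all genes, 74.6% to 77.9%, 75.0% to 78.0% and 70.5% to 74.2% were called in these fits. In the joint test it was 90.6% to 91.0%. Deviations of same-lettered libraries of different lines correlated between -0.00992 and 0.0898, and those of differently lettered libraries between -0.0752 and 0.0370. Whether the letters mark shared handling was not tested, and Dct counts were lowest in library B of both 482N1 and E0771-BrM. With the library letter as a replicate block, the fit called 43, 44 and 45 of the 50 genes, against 77.9%, 78.1% and 74.0% of all genes. It called 50 in the joint test (91.9% of all genes) and 37 highest in a line. Of 150 log2 fold changes, 6 changed sign in some alternative, all uncalled in both. These were Ano10 between B16F10-BrM and 482N1 (0.0019 with library B alone), Clcn6 between E0771-BrM and 482N1 (-0.17 to 0.0050 with each library left out) and Kcnn4 between the brain metastatic lines (-0.026 to 0.26). Kcnq1ot1 between the same lines gave -0.028 with upper-quartile scaling, -0.089 to 0.14 with each library left out and -0.29 with library B alone. Orai1 between B16F10-BrM and 482N1 gave 0.0059 with upper-quartile scaling and -0.17 to 0.038 with each library left out, and Trpc1 between E0771-BrM and 482N1 -0.0092 to 0.24 and -0.22 with library B alone. The cause of these changes was not tested. Depth limits genes with 10 counts or fewer over a line, such as Kcnab2, Cacna1c and Kcnh2 in 482N1 and Ano1, Cacna2d1, Lrrc8e and P2ry2 in B16F10-BrM. Library B alone also ended the calls of Cacna1a and Clcn7 between the brain metastatic lines (adjusted p = 0.0538 and 0.0557).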
